A study of Mus musculus with 6 samples.

Results

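Cep85, Tubb6, Acpp, Chil1, Utp14b and Fbxo36 are 6 protein-coding genes of the mouse liver. They were chosen by their read counts, which in Fpn-LKO-labelled libraries did not overlap those of the LT libraries. The table of the series lists 45777 genes, of which 17274 passed the filter on low counts and 13212 of these are protein-coding. The same separation was seen in 1226 protein-coding genes, which is 9.28% of those tested, with 952 higher in Fpn-LKO-labelled libraries (7.21%) and 274 lower (2.07%). Of the 6 genes, Acpp, Chil1, Tubb6 and Fbxo36 were higher and Cep85 and Utp14b were lower. Since this contrast chose them, their differences between the groups are described below without a test. All 6 passed the filter on low counts.

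To examine how loss of the iron exporter ferroportin (FPN, encoded by Slc40a1) in hepatocytes affects the steatotic liver, liver RNA was sequenced from male mice of the C57BL/6 strain fed a high-fat diet (HFD), with 1 library per mouse and 3 mice per group. The Fpn-LKO mice carried Alb-Cre and the Fpn flox/flox alleles, and the LT mice were littermates with Fpn flox/flox and no Cre, so both groups shared the floxed allele, the diet and the tissue. Cre was driven by the albumin promoter, which is active in hepatocytes, the floxed allele was of 129S origin and backcrossed to C57BL/6J for 10 generations, and the HFD supplied 60% of its energy as fat from an age of 8 weeks. The other cells of the liver keep their ferroportin in such a model.

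Total read counts lay between 43086184 and 47778683 per library, with 18723 to 19405 genes detected. Slc40a1, the floxed gene, had 154, 180 and 126 CPM (reads relative to library size, after TMM scaling) in LT replicates 1 to 3. In Fpn-LKO-labelled libraries it had 143, 143 and 176 CPM. The log2 fold change was 0.0073 (standard error, SE, 0.16; Benjamini-Hochberg adjusted p = 0.995, quasi-likelihood test of edgeR). Reads counted over the whole gene were therefore no fewer under the Fpn-LKO label. Such a count in whole liver, where other cells keep ferroportin, cannot check the labels. Each direction given here rests on the labels. Over the 17274 genes, 4 passed an adjusted p of 0.05 in that edgeR test (0.0232%), each higher under the Fpn-LKO label, and 830 had an unadjusted p under 0.05 (4.80%), 452 of them higher (2.62%) and 378 lower (2.19%). The count of 4 fell to 1, 0 and 1 without LT replicates 1, 2 and 3 and to 1 without Fpn-LKO replicate 2, and it was 6 without Fpn-LKO replicate 3. The 8 hepatocyte markers, among them Alb and Ttr, summed to 64142 to 79234 CPM in LT, against 67099 to 76009 CPM in Fpn-LKO-labelled libraries. Pancreas markers summed to at most 28.5 CPM, with 5 of 7 at 0 reads in every library.

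The 6 genes work in different parts of the cell. Acpp encodes prostatic acid phosphatase, which has a secreted form and a membrane form that can remove the phosphate from extracellular AMP and so release adenosine. Chil1 encodes a secreted chitinase-like lectin that binds chitin without cutting it and is known as a product of activated macrophages and of injured tissue, including fibrotic liver. Tubb6 encodes a beta-tubulin, a building block of microtubules, and Fbxo36 belongs to the F-box proteins, which bring substrates to SCF ubiquitin ligases. Cep85 is a centrosomal protein that restrains the kinase Nek2 and takes part in centriole duplication with Stil and Plk4. Utp14b is a copy of the X-linked gene Utp14a that arose by retroposition, is known for its role in sperm formation, and encodes a factor of the small subunit processome, the particle that matures the RNA of the small ribosomal subunit.

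Promoter sequence is shown for 3 of the 6 genes, those with the largest fold change (Acpp), the lowest read counts under the Fpn-LKO label (Chil1) and the highest read counts (Cep85), so that the base composition of the start regions can be compared directly. The windows hold 250 bases before and 50 after the RefSeq start, from GRCm38.p6, and are written 5′ to 3′ in the direction of the gene. They lie at chr9:104337673-104337972 (minus strand) for Acpp, chr1:134181906-134182205 (plus strand) for Chil1 and chr4:134187036-134187335 (minus strand) for Cep85. Capitals mark CCAAT and GGGCGG on either strand, the latter being the GC box.
Acpp: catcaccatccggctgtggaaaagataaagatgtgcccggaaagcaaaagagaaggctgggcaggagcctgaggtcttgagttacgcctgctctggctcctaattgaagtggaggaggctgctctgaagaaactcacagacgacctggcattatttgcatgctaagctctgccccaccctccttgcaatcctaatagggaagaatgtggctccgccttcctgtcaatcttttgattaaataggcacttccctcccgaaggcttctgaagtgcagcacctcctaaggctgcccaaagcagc
Chil1: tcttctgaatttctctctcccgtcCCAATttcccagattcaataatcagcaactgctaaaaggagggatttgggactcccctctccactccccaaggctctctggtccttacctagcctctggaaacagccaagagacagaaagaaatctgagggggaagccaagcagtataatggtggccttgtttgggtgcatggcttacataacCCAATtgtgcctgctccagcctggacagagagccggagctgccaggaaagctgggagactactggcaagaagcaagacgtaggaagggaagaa
Cep85: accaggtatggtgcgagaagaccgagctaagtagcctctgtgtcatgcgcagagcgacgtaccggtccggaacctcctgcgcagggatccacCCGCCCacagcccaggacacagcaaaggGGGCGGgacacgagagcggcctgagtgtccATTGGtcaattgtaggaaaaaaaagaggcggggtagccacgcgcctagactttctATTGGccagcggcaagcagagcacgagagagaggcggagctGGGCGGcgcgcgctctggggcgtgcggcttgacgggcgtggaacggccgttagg
The Cep85 window was GC-rich, with 63.7% G and C, 28 CpG and both motifs (2 CCAAT and 3 GGGCGG). The Acpp window held 52.0% G and C, 6 CpG and none of the motifs searched, and the Chil1 window 51.3%, 3 CpG and 2 CCAAT. RefSeq windows were examined for 5 of the 6 genes, and the window of Tubb6 was left out. The windows not printed had 75% G and C with 40 CpG (Utp14b) and 57% with 18 CpG (Fbxo36). The Utp14b window, 78658190 to 78658489 on chromosome 1, lies inside the span given for that gene, which begins at 78657825. Over 32851 windows of the same length from 27025 genes, the quartiles were 45.7%, 52.7% and 61.7% for G and C and 3, 7 and 20 for CpG, so Cep85 and Utp14b lay above the upper quartile of both measures. CCAAT was present in 37.4% and GGGCGG in 35.7% of all windows. Fbxo36 had 2 GGGCGG and Utp14b had 1 CACGTG, the E-box, which 7.15% of all windows hold. None of the 5 windows held GTAAACA, the core of the FoxO motif (3.65% of all windows), TGACNNNGC, the core of the antioxidant response element (12.4%), or TATAAA (13.6%). Both strands were searched, no 2 of these motifs overlap within the 5 windows, and a match or its absence in 300 bases says nothing about binding.

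Acpp had the largest fold change of the 1226 separated protein-coding genes. It had 5, 5 and 0 reads in LT replicates 1 to 3, against 198, 217 and 58 reads in Fpn-LKO-labelled libraries. LT thus held 10 reads in all against 473, and LT was near the limit of detection. The counting interval (95%, exact Poisson) was 1.62 to 11.7 for 5 reads, 0 to 3.69 for 0 reads and 44.0 to 75 for 58 reads. These intervals cover counting error only. They do not meet between the groups, but the gene was chosen by this gap, so that is no test of a difference. On the CPM scale the levels were 0.10, 0.115 and 0 in LT and 4.15, 4.65 and 1.25 in Fpn-LKO-labelled libraries. The group means were 0.0720 ± 0.0628 and 3.35 ± 1.84 CPM (SD, n = 3 each), with a log2 fold change of 5.46 (SE 0.83, 43.9-fold). Replicate 3 of Fpn-LKO-labelled libraries stood apart from replicates 1 and 2, with a range of 3.72-fold within the group. The coefficient of variation (CV) in that group was 54.8%, against 7.96% from counting alone, so the libraries differed by more than the counting error. With 1 library per mouse, differences between mice and between preparations cannot be told apart. Acpp (NCBI gene 56318) lies on chromosome 9 from 104288240 to 104337722 on the minus strand, in GRCm38.p6 as for all positions given here. It shares no exon base with another gene, and none of its 4434 stretches of 50 bases occurs in a transcript of another gene.

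Chil1 was the gene with the fewest reads in Fpn-LKO-labelled libraries. It had 6, 7 and 13 reads in LT and 45, 41 and 35 in Fpn-LKO-labelled libraries. The highest LT library, replicate 3, had a counting interval of 6.92 to 22.2 reads, and the lowest library of the other group 24.4 to 48.7. The intervals did not meet, in a gene again chosen by this gap. In CPM, LT had 0.121, 0.162 and 0.314 and Fpn-LKO-labelled libraries had 0.943, 0.878 and 0.754. The group means were 0.199 ± 0.102 and 0.859 ± 0.0961 CPM (SD, n = 3 each), with a log2 fold change of 2.11 (SE 0.46, 4.31-fold), which was number 38 by size among the 1226. The Fpn-LKO-labelled libraries varied no more than counting gives (CV 11.2%, against 15.7% from counting), whereas LT had a CV of 51.3%, against 34.0%. Chil1 (gene 12654) lies on chromosome 1 from 134182156 to 134190031.

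Markers of the cells known to make Chil1 were set beside it, in summed CPM over each whole list. The 8 Kupffer cell and macrophage markers gave 287 to 386 CPM in LT, against 239 to 510 CPM in Fpn-LKO-labelled libraries, with no marker at an unadjusted p under 0.05. The 7 markers of monocyte-derived macrophages gave 23.4 to 91.4 and 32.6 to 44.0 CPM, with a median log2 fold change of 0.83 and 3 of 7 higher at an unadjusted p under 0.05, beside 2.62% of all genes tested. These were Gpnmb (log2 fold change 1.98, adjusted p = 0.823), Itgax (1.70, adjusted p = 0.982) and Ccr2 (0.83, adjusted p = 0.982), all by the edgeR test. Of the others, Ly6c2 had a log2 fold change of 0.91 and Cd9 of 0.18, whereas Trem2 had -0.12 and Spp1 had -0.66. Spp1 made up 83.1 of the 91.4 CPM in LT replicate 3, the highest sum. Gpnmb, a glycoprotein of lipid-laden macrophages, had 0.0803, 0.300 and 0.218 CPM in LT, against 0.881, 0.750 and 0.733 CPM in Fpn-LKO-labelled libraries, and its groups did not overlap. The 8 neutrophil markers summed to 1.43 to 1.71 and 1.20 to 2.39 CPM, with Ly6g, Mpo, Camp and Ngp at 0 reads in all libraries. The 8 stellate cell and fibroblast markers summed to 379 to 442 and 402 to 454 CPM, and the blood markers to 351 to 941 and 474 to 1243 CPM. The hepatocyte, stellate cell, endothelial and blood lists (8, 8, 6 and 5 tested) each held 1 marker higher at an unadjusted p under 0.05. Their median log2 fold changes were 0.17, 0.31, -0.12 and 0.58. The pancreas list (2 tested) held 1 lower, with a median of -1.26. No marker passed the adjusted threshold, and the groups overlapped in the summed level of all 12 marker lists. In whole liver, more cells of a type and more RNA per cell cannot be told apart, and the part of cell composition in the level of Chil1 or of the other 5 genes was not tested.

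Tubb6 had 95, 65 and 64 reads in LT and 257, 205 and 197 in Fpn-LKO-labelled libraries. Replicate 1 was the highest library of each group, and the lowest count of one group was 2.07 times the highest of the other. The levels were 1.91, 1.5 and 1.55 CPM in LT, against 5.39, 4.39 and 4.25 CPM in Fpn-LKO-labelled libraries. The group means were 1.65 ± 0.223 and 4.67 ± 0.622 CPM (SD, n = 3 each), with a log2 fold change of 1.5 (SE 0.23, 2.82-fold). The spread was alike in both groups, with a CV of 13.5% in LT and 13.3% in Fpn-LKO-labelled libraries. The position of Tubb6 (gene 67951) is chromosome 18 from 67390731 to 67402749. Although beta-tubulins are close relatives, none of the 1709 stretches of 50 bases in the Tubb6 transcript was found in a transcript of another gene.

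Fbxo36 had the smallest fold change of the 6 genes. Its read counts were 145, 110 and 120 in LT and 281, 239 and 194 in Fpn-LKO-labelled libraries. The nearest libraries were LT replicate 1 and Fpn-LKO replicate 3, with counting intervals of 122 to 171 and 168 to 223 reads that met. The CPM levels were 2.91, 2.54 and 2.90 in LT and 5.89, 5.12 and 4.18 in Fpn-LKO-labelled libraries. Their means were 2.78 ± 0.212 and 5.06 ± 0.856 CPM (SD, n = 3 each), with a log2 fold change of 0.86 (SE 0.21, 1.82-fold), number 238 of the 1226. Fbxo36 (gene 66153) lies on chromosome 1 from 84839841 to 84900487. Its span overlaps that of Trip12, a ubiquitin ligase gene on the opposite strand, without a shared exon base. Trip12 had 168 ± 5.04 and 175 ± 12.3 CPM (SD, n = 3 each), with a log2 fold change of 0.06 (SE 0.11, adjusted p = 0.995 by the edgeR test).

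Cep85 had by far the most reads of the 6 genes and was lower in Fpn-LKO-labelled libraries. It had 3747, 2943 and 2939 reads in LT and 1475, 1890 and 1540 in Fpn-LKO-labelled libraries. The levels of 75.3, 68.0 and 71.0 CPM in LT were close together, whereas the 30.9, 40.5 and 33.2 CPM of the other group were more spread. The group means were 71.4 ± 3.67 and 34.9 ± 4.99 CPM (SD, n = 3 each), with a log2 fold change of -1.03 (SE 0.13), or 2.05-fold higher in LT. With this many reads the counting error was small, at a CV of 1.77% and 2.47%, against CVs between libraries of 5.14% and 14.3%. Its mean CPM exceeded that of 84.3% of the protein-coding genes tested, whereas the other 5 genes lay between the percentiles 9.24 (Chil1) and 37.9 (Utp14b). Cep85 (gene 70012) lies on chromosome 4 from 134129858 to 134187085, on the minus strand.

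Utp14b was the other gene that was lower in Fpn-LKO-labelled libraries. It had 416, 418 and 253 reads in LT and 125, 205 and 169 in Fpn-LKO-labelled libraries. LT replicate 3 and Fpn-LKO replicate 2 were nearest to each other, and their counting intervals of 223 to 286 and 178 to 235 reads met. The CPM levels were 8.36, 9.65 and 6.11 against 2.62, 4.39 and 3.64. The group means were 8.04 ± 1.79 and 3.55 ± 0.889 CPM (SD, n = 3 each), with a log2 fold change of -1.18 (SE 0.26), or 2.26-fold higher in LT. Of the 6 genes, Utp14b had the smallest gap between the groups, with its lowest LT count 1.23 times the highest count of the other group. In TPM, which is scaled to transcript length, the same gap was 1.07, from 1.90 to 1.77 TPM.

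The count of Utp14b has to be read beside that of Acsl3, an enzyme that activates long-chain fatty acids, because both genes lie on the plus strand of chromosome 1 and overlap. Of the 7679 exon bases of Utp14b (gene 195434, 78657825 to 78667601), 244 also belong to Acsl3 (3.18%). Of 7344 stretches of 50 bases in the Utp14b transcript, 183 occur in transcripts of 28 other genes (2.49%), 158 of them in Acsl3. Acsl3 had 1032, 748 and 504 reads in LT and 464, 503 and 443 in Fpn-LKO-labelled libraries, so LT replicate 3 was the lowest LT library for both genes, and the Acsl3 counts 504 and 503 of the nearest libraries differed by 1 read. The means of Acsl3 were 16.7 ± 4.30 and 10 ± 0.662 CPM (SD, n = 3 each), with a log2 fold change of -0.74 (SE 0.20, adjusted p = 0.863 by the edgeR test, and 0.180 to 1.000 over the alternatives). How the counting divided the shared bases between the genes was not tested. Utp14a, the X-linked relative, matched Utp14b at 75.7% identity over an alignment of 2300 positions, gaps included. The aligned part, bases 366 to 2610, is 30.4% of the 7393-base Utp14b transcript. Utp14a had 16.3 ± 1.97 and 16.8 ± 5.30 CPM (SD, n = 3 each), with a log2 fold change of 0.04 (SE 0.22).

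**Figure D1:**
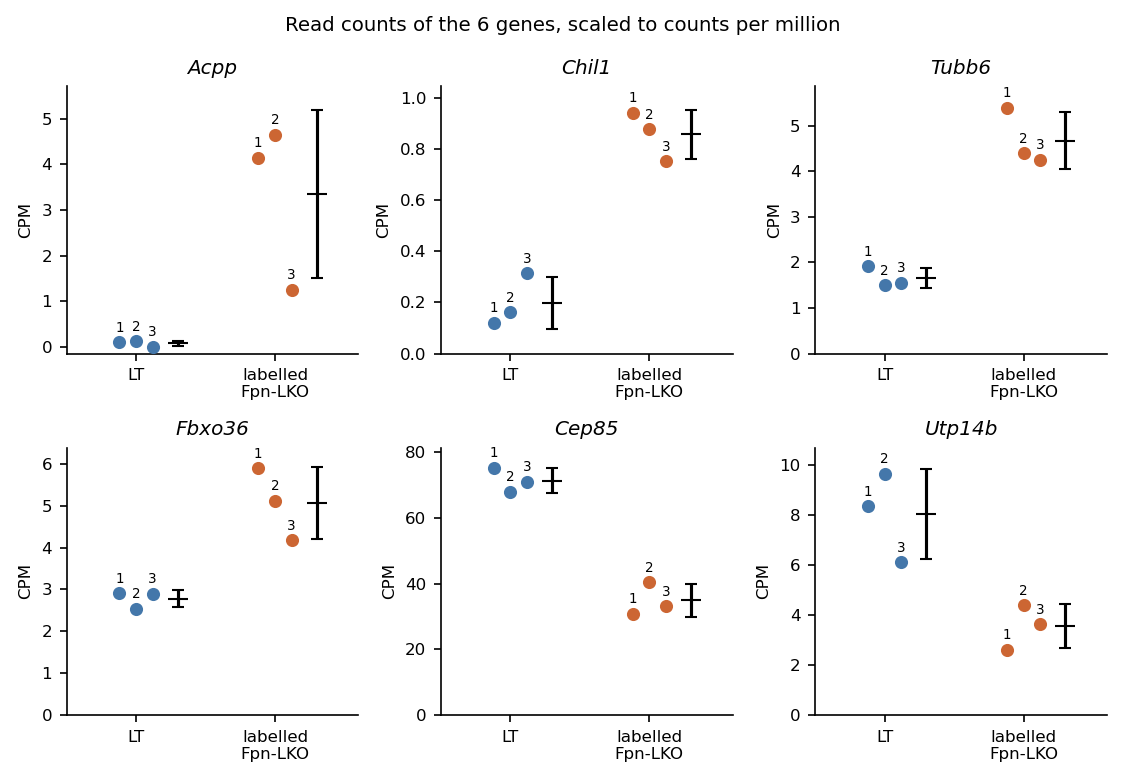
Expression of Acpp, Chil1, Tubb6, Fbxo36, Cep85 and Utp14b in CPM (vertical axes, linear) in the 3 LT libraries (blue) and the 3 Fpn-LKO-labelled libraries (orange). Each point is 1 mouse with its replicate number, and the black bars are the mean ± SD of a group. No panel shows an overlap of the groups, and Acpp has a 3.72-fold spread, from 1.25 to 4.65 CPM, in Fpn-LKO-labelled libraries.

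By the size of the fold change the 6 genes ranged from number 1 (Acpp) to number 238 (Fbxo36) of the 1226 separated genes. Among the latter the median absolute log2 fold change was 0.39, and 194 reached 1 or more, 129 of them higher and 65 lower. The smallest value of the 6 genes was 0.86. The groups of all 6 genes were also apart in CPM, FPKM, which also divides by transcript length, and TPM, all made from the same reads. In FPKM, the ratio of the lowest value of one group to the highest of the other ran from 1.32 (Utp14b) to 13.3 (Acpp). Of the related genes described below, the nearest outside the rule were Tbcb, Tuba1a and Tbl3, whose ratios in read counts were 0.998, 0.994 and 0.993. Tbcb, a tubulin folding cofactor, had 579, 571 and 538 reads in LT and 578, 707 and 672 in Fpn-LKO-labelled libraries, and the nearest counts of the groups differed by 1 read.

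**Figure D2:**
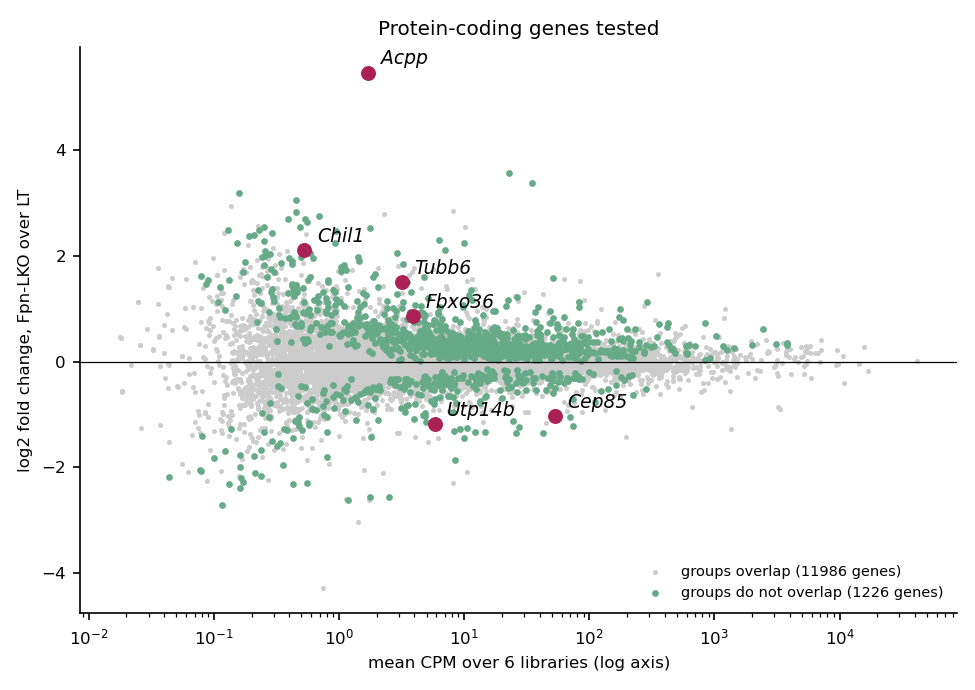
Log2 fold change (Fpn-LKO-labelled libraries over LT) against the mean CPM over 6 libraries on a log axis, for 13212 protein-coding genes tested. Grey points are genes whose groups overlap in read counts, green points the 1226 whose groups do not, and red points the 6 genes. Acpp lies above all others at 5.46, Fbxo36 and Tubb6 lie among many separated genes, and Cep85 and Utp14b are at -1.03 and -1.18.

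Levels were compared between genes in TPM, which accounts for transcript length. In LT the order was Cep85 (23.5 ± 3.38 TPM), Fbxo36 (3.73 ± 0.568), Utp14b (2.78 ± 0.764), Tubb6 (1.21 ± 0.282), Chil1 (0.127 ± 0.0520) and Acpp (0.0185 ± 0.0160 TPM, SD, n = 3 each). The LT libraries of Fbxo36 and Utp14b overlapped, and the other neighbours in that order did not. In Fpn-LKO-labelled libraries the order was Cep85 (12.3 ± 3.01 TPM), Fbxo36 (7.16 ± 1.11), Tubb6 (3.60 ± 0.330), Utp14b (1.31 ± 0.450), Acpp (1.04 ± 0.571) and Chil1 (0.636 ± 0.128 TPM, SD, n = 3 each). There Acpp overlapped with both Utp14b and Chil1. Acpp and Chil1 had a mean over all libraries of 0.527 and 0.381 TPM, under the minimum of 1 TPM used in the analysis of TPM values.

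Within the groups the correlations between the 6 genes had both signs. The correlation of their deviations from the group means (Pearson's r of log2 CPM over the same 6 libraries, a description) ran from -0.62 for Chil1 and Utp14b to 0.75 for Tubb6 and Fbxo36. Acpp, whose replicate 3 was low, had values between -0.47 (Chil1) and 0.44 (Tubb6). With 6 libraries, and few LT reads of Acpp and Chil1, these values cannot show whether the genes vary together.

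The relatives and partners of the 6 genes were then examined in 9 lists of 168 genes, without the 6 genes themselves. Of these, 136 passed the filter on low counts. An adjusted p of 0.05 was passed by 0 in edgeR's quasi-likelihood test, 0 in exactTest and 1 in DESeq2. Limma on TPM, where 112 related genes were tested, gave 0. In the quasi-likelihood test 11 had an unadjusted p under 0.05 (8.09%), with 6 higher (4.41%) and 5 lower (3.68%), beside 4.80%, 2.62% and 2.19% over all genes tested. The counts of each list below are to be read beside the same shares over all genes. The median log2 fold change of the 136 genes was 0.02, beside -0.004 for all genes, and 73 were above and 63 below 0. By read counts, 10 of the 136 were separated upward and 5 downward, beside 7.21% and 2.07% of all protein-coding genes tested.

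Among the acid phosphatases, relatives of Acpp in activity, 4 of 6 were tested, with a median log2 fold change of 0.21 and 1 at an unadjusted p under 0.05. This was Acp1, a small cytosolic phosphatase that also acts on tyrosine phosphates, with 33.4, 25.5 and 35.7 CPM in LT, against 52.2, 47.1 and 49.5 CPM in Fpn-LKO-labelled libraries. Its groups did not overlap, at a log2 fold change of 0.65 (SE 0.14, adjusted p = 0.649 by the edgeR test). The adjusted p was 0.109 by exactTest and 0.0445 by DESeq2, within a range of 0.0445 to 1.000 over the alternatives. The lysosomal phosphatase Acp2 had a log2 fold change of 0.17 (SE 0.09) and Acp5, the tartrate-resistant phosphatase of macrophages and osteoclasts, of 0.25 (SE 0.16), both with an adjusted p of 0.982 by the edgeR test. Acp4 and Acp7 had 0 reads.

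The list for extracellular adenosine, to whose formation the membrane form of Acpp contributes, held 14 tested genes of 17 with a median log2 fold change of 0.07, and 1 higher and 3 lower at an unadjusted p under 0.05. The higher one was Adora1, an adenosine receptor, with 8.94, 4.6 and 5.44 CPM in LT, against 26.0, 12.9 and 9.63 CPM in Fpn-LKO-labelled libraries. Its log2 fold change was 1.35 (SE 0.41, adjusted p = 0.982 by the edgeR test, and 0.0800 to 1.000 over the alternatives), and the lowest of the upper group was just above the highest of LT. The lower ones were the nucleotide-hydrolysing ectoenzymes Entpd8 (-0.32, SE 0.11), Enpp1 (-0.29, SE 0.12) and Enpp3 (-0.30, SE 0.12), each with an adjusted p of 0.982 by the edgeR test. In read counts the groups of Enpp1 and Enpp3 overlapped, and those of Entpd8 did not. Nt5e, the main ecto-5′-nucleotidase, had a log2 fold change of 0.42 (SE 0.42).

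Chil1 was set beside the chitinase family, of which 3 of 9 genes were tested, with a median log2 fold change of 0.16 and 0 at an unadjusted p under 0.05 by the edgeR test. The enzymes Chit1 and Chia1 had 0 reads in every library. Chil3, the closest chitinase-like relative known from alternatively activated macrophages, had 0, 10 and 0 reads in LT and 29, 9 and 21 in Fpn-LKO-labelled libraries, and was left out by the filter. Its groups overlapped by 1 read. Of the 5 proposed receptors of Chil1, 3 were tested, and none had an unadjusted p under 0.05. Il13ra2 had a log2 fold change of -0.39 (SE 0.26), Tmem219 of -0.10 (SE 0.14) and Cd44 of 0.09 (SE 0.35).

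For Tubb6, 12 of 19 other tubulins were tested, with 9 log2 fold changes above and 3 below 0, a range of -0.07 to 1.05 and a median of 0.35. Tubb4b had 46.5 ± 5.75 CPM in LT, against 65.3 ± 13.2 CPM in Fpn-LKO-labelled libraries (SD, n = 3 each), with a log2 fold change of 0.49 (SE 0.17, adjusted p = 0.982 by the edgeR test). Tuba4a had 44.0 ± 5.91 and 56.6 ± 8.64 CPM (0.36, SE 0.15, adjusted p = 0.982 by the same edgeR test). The groups of Tuba4a overlapped in CPM and in reads, and those of Tubb4b overlapped in reads (lowest 2511 under the Fpn-LKO label, highest 2530 in LT) but not in CPM. The largest values were those of Tubb2b (1.05, SE 0.47) and Tubb2a (0.98, SE 0.47), whose levels in Fpn-LKO-labelled libraries were uneven, with 26.1, 9.66 and 34.6 CPM for Tubb2a. Tubb5 had a log2 fold change of 0.29 (SE 0.15). The 7 tubulin folding cofactors had a median of 0.10 and a range of -0.14 to 0.18.

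Cep85 stood beside 27 tested genes of 28 for the centrosome and centriole, with a median log2 fold change of -0.04, 0 higher and 1 lower at an unadjusted p under 0.05. That one was Akap9, a large scaffold of the centrosome and Golgi, with 116 ± 4.20 and 98.3 ± 1.64 CPM (SD, n = 3 each), with a log2 fold change of -0.23 (SE 0.10, adjusted p = 0.982 by the edgeR test). The relative Cep85l had 59.4 ± 9.89 and 47.5 ± 14.3 CPM (-0.32, SE 0.24). The kinases that work with Cep85 had few reads, with log2 fold changes of 0.45 for Nek2 (SE 0.34) and 0.36 for Plk4 (SE 0.34), and Stil had 16 reads over all libraries and was not tested.

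The 35 small subunit processome genes tested beside Utp14b had log2 fold changes between -0.22 and 0.34 with a median of 0.02, and 0 had an unadjusted p under 0.05 by the edgeR test. The F-box and SCF genes beside Fbxo36 gave 31 tested genes of 40 found, a median of -0.01, and 2 higher and 1 lower at an unadjusted p under 0.05. Fbxo17 had 4, 7 and 2 reads in LT and 19, 17 and 19 reads in Fpn-LKO-labelled libraries (log2 fold change 1.98, SE 0.53, adjusted p = 0.851 by the edgeR test). Fbxo40 had a log2 fold change of 1.10 (SE 0.42) and Fbxo44 of -1.01 (SE 0.37), both with an adjusted p of 0.982 by the edgeR test. The core subunits of the SCF ligase, Skp1a (0.15, SE 0.14) and Cul1 (0.04, SE 0.12), had values near 0.

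**Figure D3:**
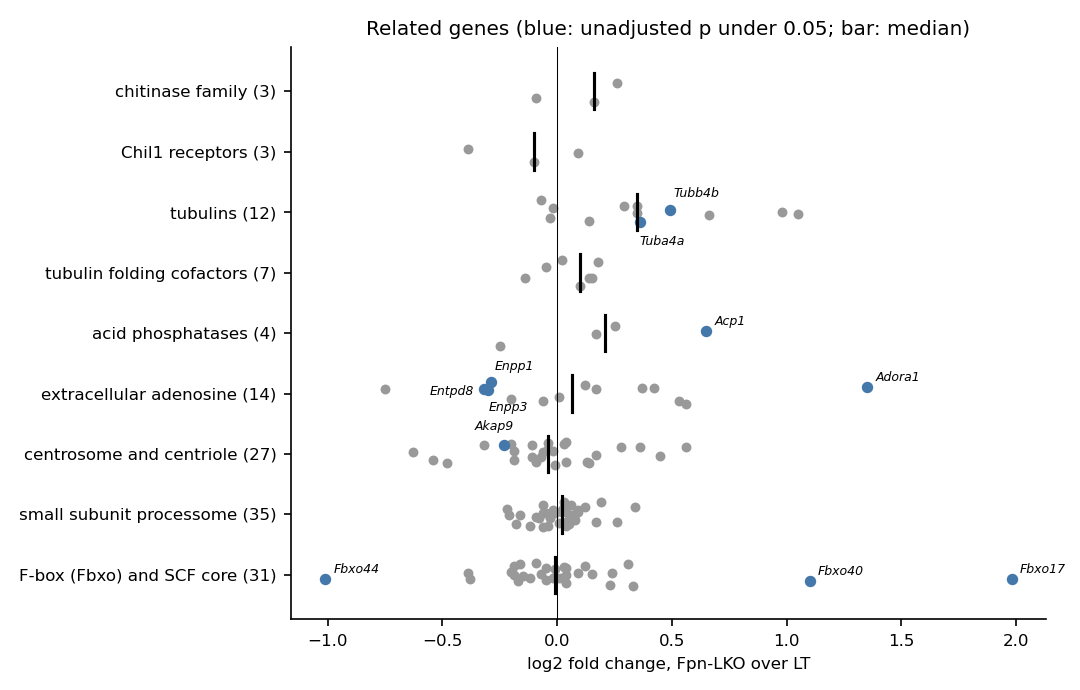
Log2 fold change (Fpn-LKO-labelled libraries over LT, horizontal axis) of the 136 tested genes in 9 lists of relatives and partners, with the number tested in parentheses. Each point is a gene, blue where the unadjusted p was under 0.05, black bars are list medians, and heights within a list are arbitrary. The medians lie between -0.10 and 0.35, the latter for the tubulins.

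Of the 6 genes, 3 lie on chromosome 1, where the floxed gene Slc40a1 is located (45908070 to 45926532). Their distances from it were 32.7 Mb (Utp14b), 38.9 Mb (Fbxo36) and 88.3 Mb (Chil1). Chromosome 1 held 782 of the 13177 protein-coding genes with a position (5.93%) and 69 of the separated ones (5.65%). Several of the nearest protein-coding neighbours had almost no reads. Chit1 and Mybph on either side of Chil1 had 0 reads and 1 read in all, Slc16a14, 5 kb from Fbxo36, had 0 reads, and Cpne4 beside Acpp had 0 reads. Among the tested neighbours, Sh3bgrl3, 1.12 kb from Cep85, had a log2 fold change of -0.02, Afg3l2, 2.02 kb from Tubb6, of -0.22, and Dnajc13, 24.6 kb from Acpp, of 0.01. Mogat1, an enzyme of triglyceride synthesis 50.9 kb from Utp14b, had 88, 30 and 62 reads in LT and 458, 143 and 55 in Fpn-LKO-labelled libraries, with overlapping groups (log2 fold change 1.80, SE 0.73, adjusted p = 0.982 by the edgeR test).

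Within 3 Mb of the 6 genes, a window chosen after the values were seen, 332 genes were tested and 24 had an unadjusted p under 0.05 by the edgeR test. The windows of Cep85 (7 of 108, 6.48%), Tubb6 (1 of 37, 2.70%), Chil1 (4 of 74, 5.41%) and Fbxo36 (2 of 49, 4.08%) gave shares of 2.70% to 6.48%, beside 4.80% over all genes. Around Acpp the count was 8 of 51 (15.7%), with 5 higher and 3 lower, and around Utp14b 2 of 13 (15.4%), which were Acsl3 and Mogat1. On the side of Acpp toward higher coordinates lay Nudt16 (log2 fold change -0.97, at 0.792 Mb), Col6a5 (-2.56, at 1.52 Mb), Glyctk (0.98, at 1.82 Mb), Rpl29 (3.37, at 2.09 Mb), Abhd14a (0.72, at 2.1 Mb), Abhd14b (1.12, at 2.11 Mb), Mapkapk3 (1.98, at 2.92 Mb) and Hemk1 (-0.60, at 2.99 Mb). Rpl29, a ribosomal protein gene, was the only one of the 332 past the adjusted threshold (adjusted p = 0.0289 by the edgeR test), and near-identical copies of it elsewhere in the genome were not examined here. Adora1, described above, lies 0.00918 Mb from Chil1.

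**Figure D4:**
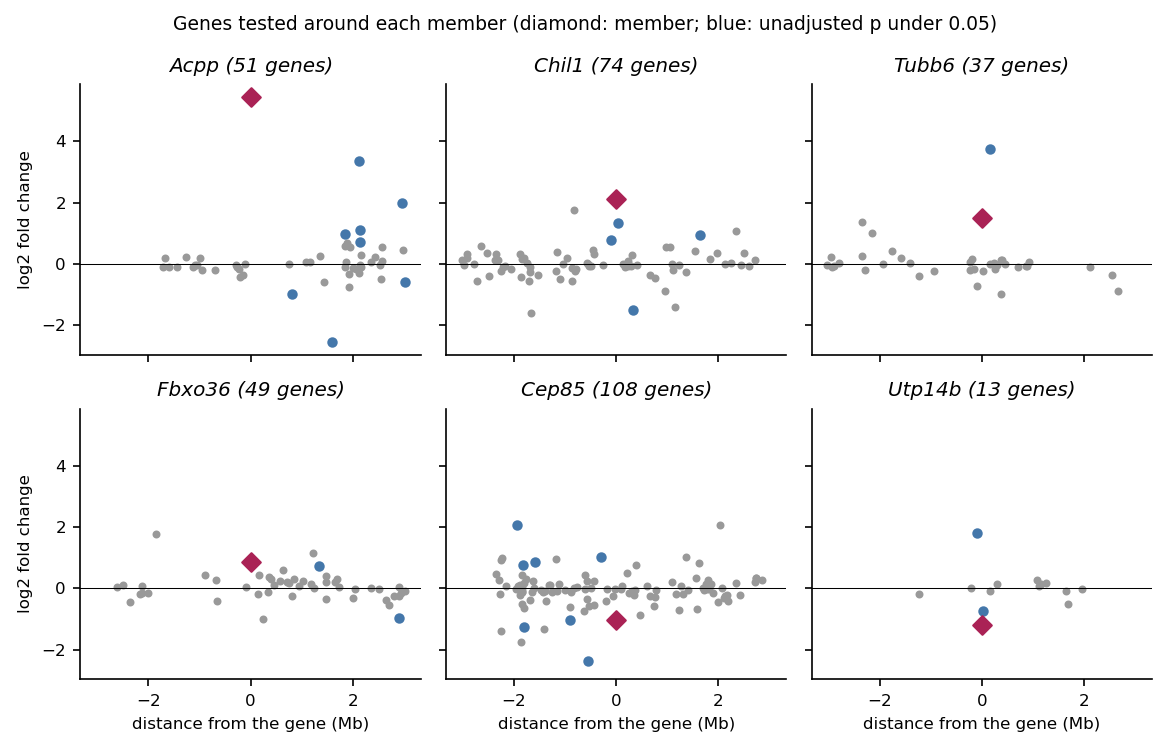
Log2 fold change (Fpn-LKO-labelled libraries over LT, vertical axes) of the genes tested within 3 Mb of each of the 6 genes, against the distance in Mb. Red diamonds are the 6 genes, blue points have an unadjusted p under 0.05, and grey points do not. The Acpp panel has 8 blue points of 51, all at higher coordinates than Acpp.

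For each of the 6 genes, the protein-coding genes with a mean of at least 1 CPM were ordered by Pearson's r of log2 CPM over the 6 libraries, which share the contrast of the groups, so these values are a description. Acpp was most like Them4 (r = 0.991), Tnfaip1 (0.978) and Cdh13 (0.977), among 11280 genes compared. For Chil1 they were Txndc12 (0.993), Mapkapk3 (0.989) and 1600002K03Rik (0.985). Mapkapk3, a stress-activated kinase, is also 1 of the genes in the window around Acpp. Tubb6 was most like Exoc4 (0.995), Gramd4 (0.993) and Bcap31 (0.988). Fbxo36, on another chromosome than Acpp, was most like Abhd14b (0.994), Vti1b (0.994) and Abhd14a (0.990), and the adjacent genes Abhd14a and Abhd14b again lie near Acpp. Among the genes with a pattern like that of Cep85 was Odf2l (0.974), a relative of a centrosomal and sperm tail protein. For Utp14b they were St3gal6 (0.988), Carf (0.985) and Mia2 (0.984). Between 17 and 30 genes had an r above 0.95 with each of the 6 genes.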

How the data were processed

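Livers of 6 male mice were analysed, 3 LT and 3 Fpn-LKO, grouped by the sample titles. The authors deposited read counts per gene, not normalized, with FPKM and TPM columns computed by the authors from the same reads, for 45777 genes. Paired reads of 100 bases had been aligned to mm10. The submitters' processing notes name HISAT2 2.1.0, Bowtie2 2.3.4.1, StringTie 2.1.3b, bcl2fastq 2.20.0 and FastQC 0.11.7, and the annotation release is not given in the sources used here. The labels and the methods name different library kits (mRNA and total RNA).

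As in the methods, only genes with reads in all libraries but at most 1 were tested. The counts were scaled by TMM and tested with edgeR 4.0.16 (R 4.3.3, quasi-likelihood test, Benjamini-Hochberg adjustment, threshold 0.05), where the study used exactTest. Standard errors come from the F statistic. All 6 libraries carry 1 batch label. The labels do not say that the replicates are of separate litters. Total counts of 43086184 to 47778683 leave counting error large for genes with few reads, such as Chil1 and Acpp. Fold changes and gaps are given as descriptions for the 6 genes, since this contrast chose them. Members and lists were chosen with earlier results of these data known, and the windows of 3 Mb and the leave-one-out counts of related genes after values were seen.

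Genes were named by a rule: the 6 genes, Slc40a1, their closest relatives, up to 5 genes per list at an unadjusted p under 0.05, neighbours, and the 3 genes with the highest r, of which some are not reported here. Promoters are from RefSeq (GRCm38.p6). Shared stretches of 50 bases were searched in GENCODE transcripts, and Utp14a was aligned with BLAST 2.17.0. Alternatives were RLE, exactTest, DESeq2 1.42.0, all genes with at least 1 read, filterByExpr, a replicate block, limma 3.58.1 on log2(TPM + 1) and log2(TPM + 0.1), and leaving out each library. Limma took genes with a mean of at least 1 TPM, and the 6 genes whatever their level. The tests were checked on simulated counts, with less spread between replicates than these data and without the genes of lowest counts. That check gives no error rate for these data. No column of the table was left unused for want of a sample.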

Additional observations from a re-analysis of the deposited data

How the results depend on the processing

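The direction of the 6 genes is fixed by how they were chosen, so its persistence when a library is left out is no sign of stability. Of 84 alternatives for the size of their fold changes, 78 stayed within 1 SD of the replicates. All these alternatives reuse the reads that chose the genes, so this count is no sign of stability either. Those that moved were the fold changes on log2(TPM + 1) of Tubb6 (1.06), Acpp (0.96), Chil1 (0.54) and Utp14b (-0.71), and of Acpp on log2(TPM + 0.1) (3.12), where the added constant is large beside the level of the gene. Leaving out each library in turn gave log2 fold changes of 4.93 to 5.90 for Acpp, 1.84 to 2.59 for Chil1, 1.38 to 1.62 for Tubb6, 0.74 to 0.98 for Fbxo36, -1.16 to -0.96 for Cep85 and -1.36 to -1.0 for Utp14b, and the upper value of Chil1, which came without LT replicate 3, was also more than 1 SD away.

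The count of genes past the adjusted threshold was 4 of 17274 by edgeR's quasi-likelihood test. It was 63 by exactTest (44 higher and 19 lower), 72 by DESeq2 (49 and 23), and 0 to 6 without 1 library. By limma it was 7 on either TPM scale, of 11466 genes tested there. With a replicate block it was 0, with 850 genes at an unadjusted p under 0.05. The deviations of same-numbered libraries correlated at 0.129, -0.00948 and 0.0448, and those of differently numbered libraries at -0.0977 to 0.0610. With 3 libraries per group these values cannot show whether the mice were paired. Of the related genes, 0 passed the adjusted threshold by the quasi-likelihood test and 1, Acp1, by DESeq2. At an unadjusted p under 0.05 the count of 11 was 8 by exactTest and 13 by DESeq2. It was 12 with the replicate block, 6 to 10 without 1 library, and 7 by limma, where 112 related genes were tested. The cause of these differences was not tested. With 3 mice per group, an exact permutation test of 1 gene cannot give a two-sided p below 0.1, and at the depth of LT neither the level of Acpp nor its exact fold change can be fixed closely.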
